A study of Mus musculus with 36 samples.

Results

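Cells carrying C/EBPα R35K were compared with cells carrying C/EBPα R35A at 1 hour post induction (hpi) in 4 RNA-seq libraries, 2 for each construct, out of 36 in the series. The 4 libraries were chosen by construct and timepoint alone, and the 4 libraries of the same constructs at 0 hpi served as a check, since R35K counts stand in a table of their own. C/EBPα is a transcription factor that turns B cells into macrophages, a conversion called BMT, and both constructs replace arginine 35 of the protein, with alanine in R35A and with lysine in R35K. Wild-type (WT) libraries at 0 and 1 hpi gave a reference level.

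All 3 constructs were C/EBPα fused to the estrogen receptor (ER) in a retrovirus that also marks the infected cell with human CD4, so that estradiol (E2) brings the factor into the nucleus. The cells were primary B cells from the bone marrow of C57BL/6J mice, hCD4 positive after infection, and grown with IL-7 on inactivated mouse embryonic fibroblast feeders that were removed by differential adherence before RNA extraction. For induction the study's methods add IL-3, FLT-3, CSF-1 and SCF to the medium. The study calls its duplicates biological, and the labels do not say whether they came from separate mice or cultures, so p-values measure the spread between these samples. Total counts on genes lay between 13683736 and 17271985 over the 8 R35K and R35A libraries, and the common biological coefficient of variation was 2.23%.

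In a B cell precursor, Pax5 and Ebf1 hold the B lineage program, which includes the pre-B cell receptor and the Rag recombinase. C/EBPα works with PU.1, encoded by Spi1 and present in B cells at a lower level than in macrophages, to switch on myeloid genes such as Csf1r, while the B lineage program is silenced. The study asked how methylation of arginine 35 by the methyltransferase Carm1 bears on this conversion. Neither alanine nor lysine can be methylated as an arginine, and lysine keeps a positive charge whereas alanine has none.

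At 1 hpi R35K cells had a higher share of reads than R35A cells for macrophage genes and also for B cell genes. C1qa, C1qb, C1qc and Mrc1 were 3.67- to 4.11-fold higher in R35K cells, Csf1r and Lyz2 2.10- and 2.16-fold, and Pax5 and Rag1, which had fallen in both kinds of cell, 2.01- and 2.36-fold. Genes of mitosis were higher as well. Olr1, which rose in both cells, was lower in R35K cells, as were contractile genes typical of fibroblasts. Of 16274 genes tested, 1485 (9.12%) passed a 1.5-fold threshold and an adjusted p of at most 0.05 (edgeR quasi-likelihood test, Benjamini-Hochberg adjustment), 1086 (6.67%) higher and 399 (2.45%) lower in R35K cells. The median log2 difference of all genes was 0.06. In a fit of the 8 R35K and R35A libraries alone, with filter, scaling and spread estimated anew, the split was 882 higher and 531 lower. Scaled on genes that leukocytes share (leukocyte scaling, described with the feeder markers), the balance turned. Under it 84 genes (0.516%) were higher and 7813 (48%) lower, with a median log2 difference of −0.60 over all genes. Beside these values, the macrophage signature had a median of −0.10, with 1 of 19 genes higher and 3 lower. Of 20 B cell signature genes 2 were higher, with a median of 0.18, and no mitosis gene was called. C1qa, C1qb, C1qc, Mrc1, Rag2 and Enpep were still called higher in R35K cells under that scaling, by 0.89 to 1.37 in log2. That scaling lowered every gene by about the same amount, so these calls followed from large unscaled differences.

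The same comparison at 0 hpi called 1 gene (0.00614%), so the 2 tables hardly differed before induction. That gene was Mmp8, a neutrophil collagenase, at 1.28 and 0.56 CPM (normalised read count) in R35A cells and 2.51 and 2.86 CPM in R35K cells. With no adjustment of the p (limit 0.05) the fold threshold left 204 genes, and leaving out R35A replicate 2 at 0 hpi raised the count of called genes to 13. Construct and table cannot be told apart at 1 hpi itself. The difference between constructs in the change from 0 to 1 hpi, which removes what was already there at 0 hpi, was called for 1081 genes (6.64%), 817 (5.02%) larger and 264 (1.62%) smaller in R35K cells, and under leukocyte scaling 73 were larger and 5969 smaller.

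Feeder and leukocyte genes moved with the comparison and are given before the gene groups. The summed level of 20 fibroblast markers was 13762 to 14120 CPM in R35A and 13442 to 14030 CPM in R35K libraries at 0 hpi, and at 1 hpi it was 23121 to 23179 CPM in R35A and 17729 to 18236 CPM in R35K libraries. The WT libraries at 1 hpi lay between, at 20921 to 21062 CPM. None of the 20 markers was at 0, and 15 were lower in R35K cells by adjusted p alone, against 2 higher. Past the fold threshold as well were Acta2 (log2 difference −0.68) and Tagln (−0.66), actin and an actin-binding protein of contractile cells, both by edgeR with Benjamini-Hochberg adjusted p of 9.9e-27 and 5.28e-16. Col1a1, a collagen chain, stood at 765 and 775 CPM in R35A and at 540 and 524 CPM in R35K cells.

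A set of 17 genes that leukocytes of all lineages express, chosen after the data were seen, summed to 3519 to 3545 CPM in R35A and 3682 to 3715 CPM in R35K libraries at 0 hpi. At 1 hpi the sum was 2642 to 2668 CPM in R35A and 4035 to 4054 CPM in R35K libraries, without overlap. Of these genes 13 were called higher and 0 lower, with a median log2 difference of 0.68. From 0 to 1 hpi 6 of them rose and 3 fell in R35K cells, and 2 rose and 7 fell in R35A cells. Ptprc, which encodes CD45, the general leukocyte surface marker, was measured at 249 and 239 CPM in R35A and 353 and 362 CPM in R35K cells, a log2 difference of 0.55 that did not reach the fold threshold. In bulk libraries fewer cells of a type and less RNA per cell cannot be told apart. The part of the feeder and leukocyte shares in the results was not tested. To show their size, libraries were also scaled on the 17 leukocyte genes (leukocyte scaling), and the counts under it are given with the gene groups. These genes changed over induction themselves and are not a fixed reference. Lsp1, 1 of the 17, was called lower under that scaling (−0.72). Over all genes that scaling called 84 (0.516%) higher and 7813 (48%) lower, with a median log2 difference of −0.60. Counts and medians of the gene groups under it are to be read beside these values. The scaling lowered the log2 difference of every gene at 1 hpi by about the same amount. Which genes were still called higher under it followed mainly from the size of their unscaled difference. It gave no separate evidence on single genes or lists.

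**Figure D1:**
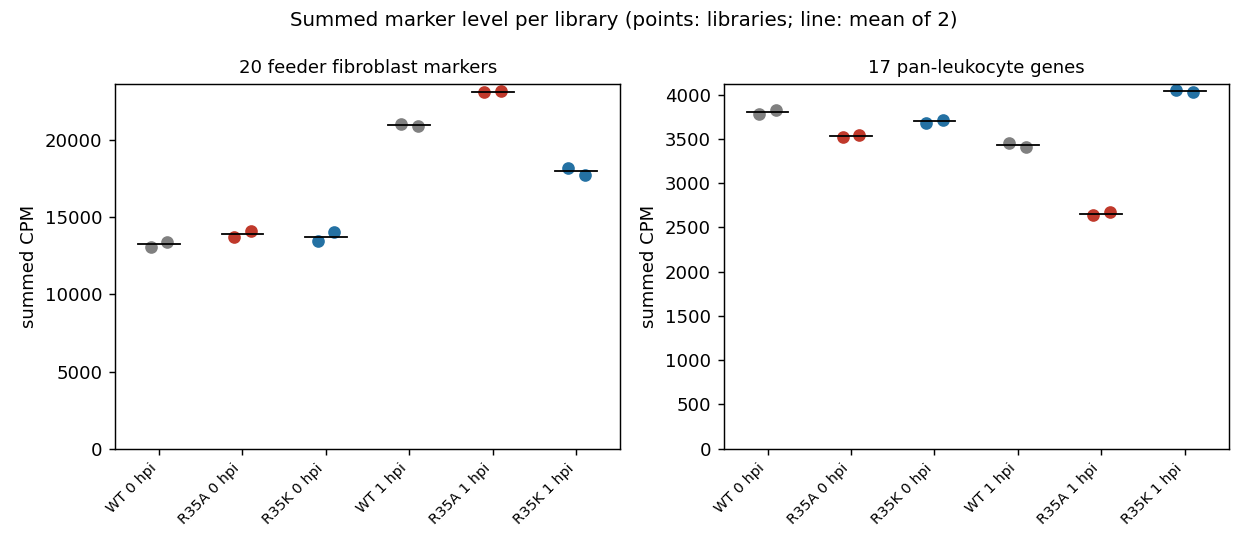
Summed CPM of 20 feeder fibroblast markers (left) and of 17 pan-leukocyte genes (right) in each WT, R35A and R35K library at 0 and 1 hpi; points are libraries and lines are means of 2. At 1 hpi the fibroblast sum is 23121 to 23179 CPM in R35A and 17729 to 18236 CPM in R35K libraries, and the leukocyte sum is 2642 to 2668 against 4035 to 4054 CPM.

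Among the macrophage genes named by rule, the complement genes and Mrc1 had the largest differences. C1qa, C1qb and C1qc encode the chains of C1q, which starts the classical complement pathway and is made by tissue macrophages, and they lie side by side on the minus strand of chromosome 4 (mm10), at chr4:136895917-136898803, chr4:136880129-136886187 and chr4:136889804-136893065. Mrc1, at chr2:14229392-14332057, encodes the mannose receptor CD206, a marker of alternatively activated macrophages. Lair1 encodes an inhibitory collagen receptor of immune cells, and Enpep encodes the BP-1 antigen, an aminopeptidase on early B cells. RefSeq promoter sequences (GRCm38.p6) were found for 14 of the 20 genes named by rule, and 4 are shown as examples. Their genes were among the 10 with the largest positive difference, from both the macrophage and the B cell side. C1qc, Abcg3 and Slc9a9 were among these 10 as well and are not shown. Each runs 5′ to 3′ over the 250 bases before the RefSeq start of the gene: chr4:136886201-136886450 (minus strand) for C1qb, chr2:14229164-14229413 (plus strand) for Mrc1, chr7:4063205-4063454 (minus strand) for Lair1 and chr3:129332750-129332999 (minus strand) for Enpep. Capitals mark the C/EBP motif TTGCNNAA and the PU.1 motif GAGGAA, each searched on both strands, where the second appears as TTCCTC on the other strand.
C1qb: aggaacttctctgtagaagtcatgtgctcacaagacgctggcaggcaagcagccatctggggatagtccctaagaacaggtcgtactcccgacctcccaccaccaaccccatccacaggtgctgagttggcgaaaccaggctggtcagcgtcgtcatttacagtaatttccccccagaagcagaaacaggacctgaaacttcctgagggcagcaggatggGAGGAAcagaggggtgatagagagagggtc
Mrc1: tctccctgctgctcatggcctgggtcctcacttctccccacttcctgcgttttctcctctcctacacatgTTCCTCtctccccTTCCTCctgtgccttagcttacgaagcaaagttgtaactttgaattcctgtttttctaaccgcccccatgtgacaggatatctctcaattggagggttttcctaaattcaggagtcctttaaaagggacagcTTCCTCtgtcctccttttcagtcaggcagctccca
Lair1: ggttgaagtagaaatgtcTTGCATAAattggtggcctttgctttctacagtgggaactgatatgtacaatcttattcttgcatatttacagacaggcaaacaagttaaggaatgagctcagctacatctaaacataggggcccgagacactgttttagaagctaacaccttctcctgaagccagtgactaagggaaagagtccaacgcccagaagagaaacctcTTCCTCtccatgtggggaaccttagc
Enpep: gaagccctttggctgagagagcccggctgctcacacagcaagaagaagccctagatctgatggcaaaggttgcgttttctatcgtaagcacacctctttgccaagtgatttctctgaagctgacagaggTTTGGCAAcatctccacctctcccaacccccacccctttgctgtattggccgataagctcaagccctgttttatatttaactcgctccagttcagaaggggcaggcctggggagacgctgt
The GENCODE gene model of Mrc1 starts earlier than the RefSeq one, so that the last 22 bases shown for Mrc1 lie within it. The PU.1 letters occurred 1 time in C1qb and Lair1 and 3 times in Mrc1, and the C/EBP letters 1 time in Lair1 and in Enpep. Among the sequences not shown, C1qc held the PU.1 letters 1 time, and Abcg3 and Slc9a9 held neither motif. On the lower side Klhdc8a, Cxcr6 and Tll1 held neither motif. Adcyap1r1 and Olr1 held the PU.1 letters 1 time, as did a window of Tfpi2, and Tmtc2 the C/EBP letters 1 time. Over all 32851 promoters of the table, 23.3% held the PU.1 motif in this window and 9.56% the C/EBP motif. For the 967 promoters of genes called higher in R35K cells these shares were 29.1% and 10.5%, for the 353 of genes called lower 23.2% and 5.38%, and for all 14508 of tested genes 22.7% and 7.57%. A match describes the letters only, since binding was not measured here and some genes have several listed starts.

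C1qc was measured at 37.2 and 37.0 CPM in R35A cells at 1 hpi and at 144 and 142 CPM in R35K cells. At 0 hpi no R35A or R35K library had more than 1.90 CPM. The R35K libraries were thus far above the R35A libraries, with a log2 difference of 1.94 ± 0.05 (SE; adjusted p = 5.07e-32, edgeR). C1qa (13.6 and 11.9 against 56.0 and 49.3 CPM; log2 difference 2.04) and C1qb (65.7 and 65.3 against 244 and 237 CPM; 1.88) behaved alike. Mrc1 rose from 2.70 and 4.0 to 194 and 204 CPM in R35K cells, and from 3.63 and 2.82 to 52.6 and 51.7 CPM in R35A cells. The log2 difference at 1 hpi was 1.93 ± 0.05 (SE; adjusted p = 2.43e-33, edgeR), and under leukocyte scaling it was 1.26. C1qc kept a difference of 1.28 under that scaling.

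Lyz2, which encodes macrophage lysozyme, was measured at 2974 and 2979 CPM in R35A and 6461 and 6398 CPM in R35K cells at 1 hpi, against 34.7 to 40.5 CPM in the 4 libraries at 0 hpi. Lyz1 is a close copy of Lyz2, and short reads shared by both could be split or lost in counting. Csf1r, the receptor of macrophage colony-stimulating factor, was measured at 586 and 575 CPM in R35A and 1236 and 1197 CPM in R35K cells. WT cells at 1 hpi had 120 and 121 CPM of Csf1r, so both mutants stood above WT cells and R35K cells stood highest. The log2 differences between the mutants were 1.11 ± 0.02 for Lyz2 and 1.07 ± 0.03 for Csf1r (SE; adjusted p = 4.25e-36 and 1.09e-32, edgeR). Under leukocyte scaling they were 0.44 and 0.40, below the fold threshold.

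Of the 20 genes of the macrophage signature, 19 passed the low-count filter, and 9 were higher and 2 lower in R35K cells, against 6.67% and 2.45% of all genes. These shares of all genes apply to the 1 hpi counts of every list that follows. This list and the B cell signature were taken from the study, so their directions of change from 0 hpi are not independent evidence. Its median log2 difference was 0.56 at 1 hpi and 0.10 at 0 hpi, and −0.10 under leukocyte scaling, with 1 higher and 3 lower. Among the genes higher before that scaling were Trem2 (1.22), a lipid receptor of phagocytes, its signalling partner Tyrobp (0.86), Cd14 (0.94), the co-receptor for lipopolysaccharide, and Itgam (0.80), which encodes the integrin CD11b. Adgre1, which encodes the macrophage antigen F4/80, was measured at 115 and 107 CPM in R35A and 264 and 256 CPM in R35K cells (log2 difference 1.23). Under leukocyte scaling these 5 genes had differences of 0.14 to 0.57 and none was called.

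Ifitm6, of the interferon-induced transmembrane family, was among the lower genes of the signature. It was measured at 28.7 and 29.5 CPM in R35A and 18 and 16.8 CPM in R35K cells at 1 hpi, and at most 0.40 CPM in these cells at 0 hpi, so it rose in both. The log2 difference at 1 hpi was −0.73 ± 0.08 (SE; adjusted p = 2.62e-10, edgeR), and it was −1.40 under leukocyte scaling.

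Receptors for Fc and for particles to be engulfed gave the highest count among the myeloid lists, with 16 of 20 higher and 0 lower and a median of 0.83. Over all genes 6.67% were higher and 2.45% lower. Cd68, a lysosomal glycoprotein of macrophages, was measured at 114 and 109 CPM in R35A and 272 and 263 CPM in R35K cells (log2 difference 1.26). Mertk, a receptor for dying cells, was at 16.3 and 16.9 against 39.8 and 39.9 CPM (1.26), and Fcgr1, the high-affinity IgG receptor, at 8.39 and 9.67 against 24.7 and 22 CPM (1.37). Axl, a relative of Mertk, was at 670 and 659 against 493 and 466 CPM, a log2 difference of −0.47 below the fold threshold. Under leukocyte scaling 4 genes of the list were higher and 3 lower, with a median of 0.17, and Cd68 (0.59), Mertk (0.60) and Fcgr1 (0.70) were called. Of the NADPH oxidase subunits, which make the oxidative burst, 4 of 7 were higher, with Ncf1 at 1.00, against 0 higher and 1 lower under leukocyte scaling.

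Pattern recognition receptors were higher for 8 of 23 genes, led by Tlr8 (14.3 and 15.1 against 37.7 and 40.4 CPM; log2 difference 1.41), a sensor of RNA. Under leukocyte scaling 1 was higher, Tlr8 (0.74), and 1 lower, with a median of −0.28. Of 25 cytokines and chemokines 6 were higher and 1 lower, with a median of 0.37. Under leukocyte scaling 1 was higher and 8 lower with a median of −0.29, against a median of −0.60 over all genes. Pf4, a chemokine of platelets and macrophages, was measured at 167 and 170 CPM in R35A and 486 and 484 CPM in R35K cells (1.52, and 0.86 under leukocyte scaling). Il1b, the inflammatory interleukin, was the lower gene, at 15.1 and 12.6 against 8.83 and 8.72 CPM (−0.66, and −1.33 under leukocyte scaling). Cxcl2, a neutrophil chemokine, was at 68.1 and 67.8 against 112 and 116 CPM (0.75, and 0.08 under leukocyte scaling). Of 16 granule and lysozyme genes 4 were higher, among them Ngp on 2 and 1 against 8 and 6 counts, too few to give a size, and under leukocyte scaling 0 were higher and 3 lower. Mmp8, which already differed at 0 hpi, was at 330 and 329 CPM in R35A and 240 CPM in both R35K libraries at 1 hpi, so its order was the reverse of that at 0 hpi, with a log2 difference of −0.46 below the fold threshold.

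**Figure D2:**
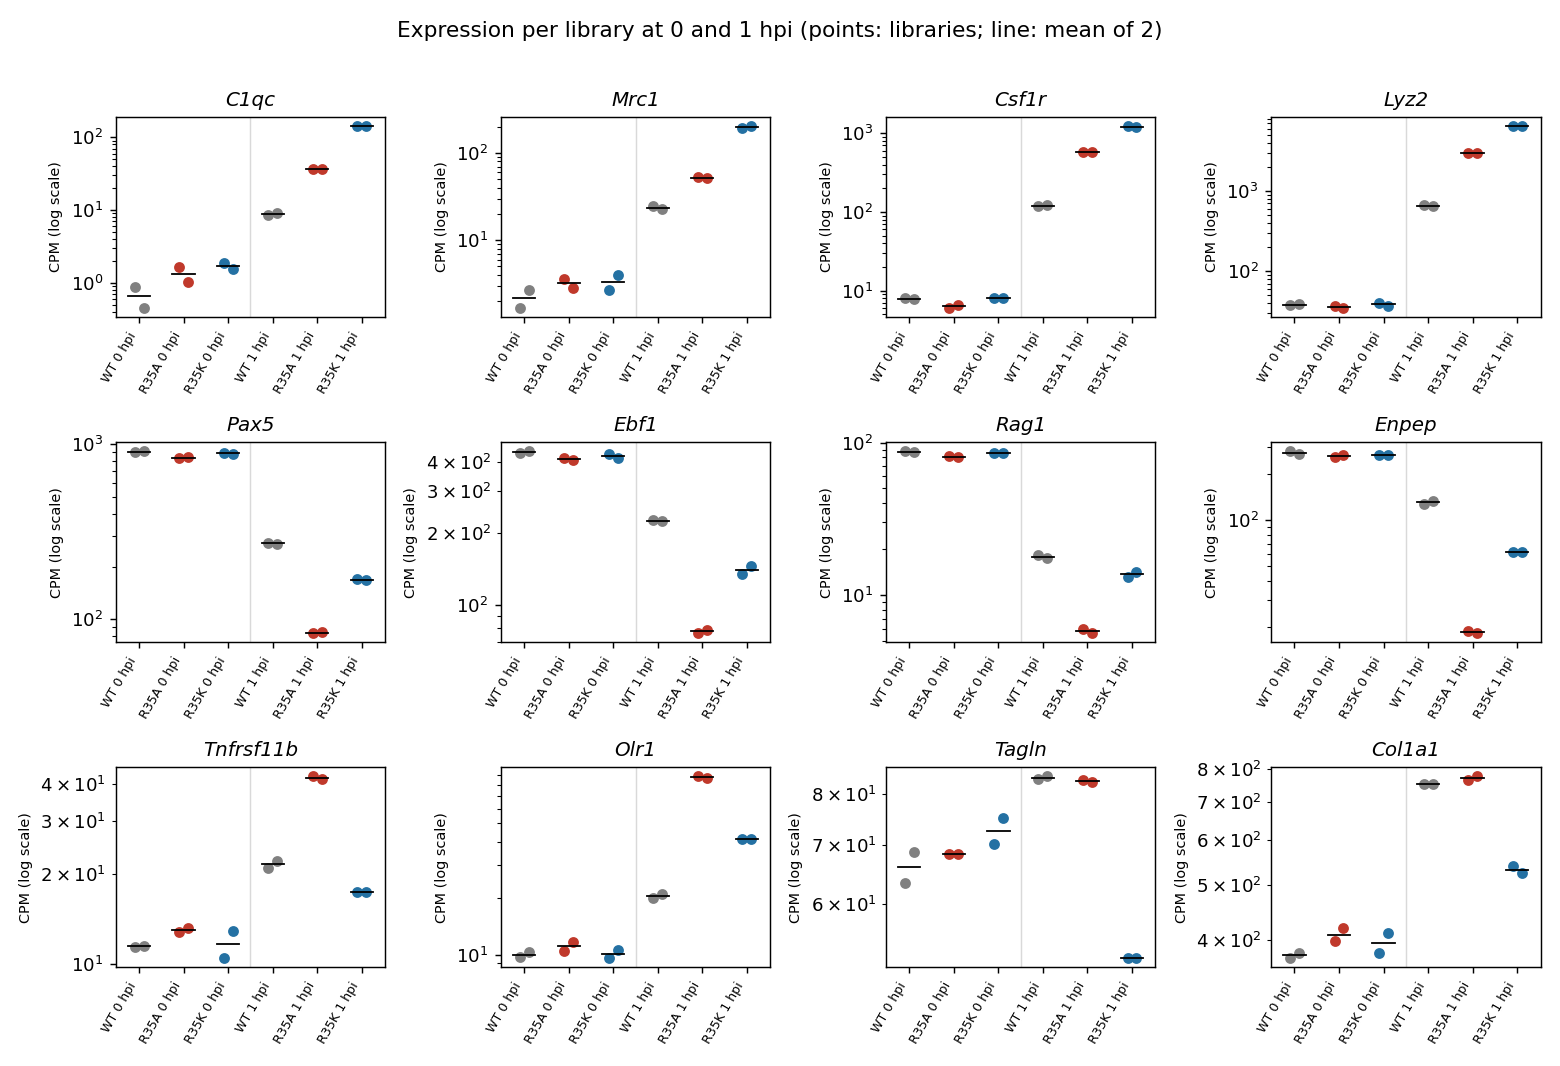
CPM (log axis, own range in each panel) of 12 genes in each WT, R35A and R35K library at 0 and 1 hpi; points are libraries and short lines are means of 2. C1qc, Mrc1, Csf1r and Lyz2 rise most in R35K cells, Pax5, Ebf1, Rag1 and Enpep fall least in WT cells and most in R35A cells, and Tnfrsf11b, Olr1, Tagln and Col1a1 are lower in R35K than in R35A cells at 1 hpi.

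B cell genes had fallen in both mutants by 1 hpi, and in CPM they had fallen less in R35K cells. Pax5 was measured at 837 and 844 CPM in R35A and 891 and 886 CPM in R35K cells at 0 hpi. At 1 hpi it was at 83.4 and 84.3 CPM in R35A and 170 and 167 CPM in R35K cells, 10.0-fold and 5.27-fold lower than before. WT cells at 1 hpi had 274 and 271 CPM, so the order was WT, R35K, R35A, with no overlap of libraries. The log2 difference of R35K from R35A cells was 1.01 ± 0.03 at 1 hpi (SE; adjusted p = 4.10e-28, edgeR) and 0.08 at 0 hpi, and the fall differed by 0.93. Under leukocyte scaling the difference at 1 hpi was 0.34.

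The B cell signature was higher in R35K cells for 17 of 20 genes and lower for 0, against 6.67% and 2.45% of all genes. Its median log2 difference was 0.84 at 1 hpi and 0.05 at 0 hpi. Under leukocyte scaling the median was 0.18, with 2 higher and 0 lower, against 0.516% and 48% of all genes. Rag1, one part of the recombinase, was measured at 6.01 and 5.63 CPM in R35A and 13.2 and 14.2 CPM in R35K cells (1.24). Rag2, the other part, was at 2.02 and 1.65 against 5.72 and 5.17 CPM (1.56) and was called under leukocyte scaling as well (0.89), whereas Rag1 was not (0.57). Ebf1 was at 76.4 and 78.9 against 135 and 145 CPM (0.85, and 0.19 under leukocyte scaling).

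Signalling genes of the pre-B cell receptor were higher for 18 of 20, with a median of 0.90, and for 2 of 20 under leukocyte scaling, with a median of 0.24. Of all genes 6.67% were higher, and 0.516% under leukocyte scaling. Igll1, a surrogate light chain, was measured at 113 and 115 CPM in R35A and 200 and 202 CPM in R35K cells (log2 difference 0.81), and Blk, a kinase of the SRC family, at 14.3 and 15.2 against 30.9 and 33.5 CPM (1.12), and neither was called under leukocyte scaling. Of 19 B lineage transcription factors 10 were higher and 0 lower, among them Bach2 (0.98) and Pou2f2 (1.02). Under leukocyte scaling 0 were higher and 5 lower, with a median of −0.08, and Bach2 (0.31) and Pou2f2 (0.36) were not called. Enpep gave the widest gap on the B cell side. It was measured at 18.9 and 18 CPM in R35A and 62.0 and 61.6 CPM in R35K cells, after 259 to 268 CPM in the 4 libraries at 0 hpi, a log2 difference of 1.74 ± 0.06 (SE; adjusted p = 4.22e-28, edgeR). WT cells stood at 128 and 133 CPM, and under leukocyte scaling the difference was 1.07.

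Spi1 and Cebpa differed less than the C1q genes and Mrc1, but more than the macrophage signature median of 0.56. Spi1 was measured at 101 and 102 CPM in R35A and 170 and 164 CPM in R35K cells (log2 difference 0.72), after 32.0 to 33.7 CPM at 0 hpi. Cebpa was measured at 56.4 and 59.3 CPM in R35A, 98.2 and 94.9 CPM in R35K and 114 and 110 CPM in WT cells, and was the 1 called gene of 6 in the C/EBP family (0.74). Reads of Cebpa can come from the endogenous gene or from the construct, and the counts do not tell them apart. Esr1, which encodes the estrogen receptor and was chosen after its values were seen, had 49.1 CPM in both R35A libraries, 80.2 and 81.8 CPM in R35K and 155 and 160 CPM in WT cells, and the same limit applies if the construct holds the mouse sequence. Under leukocyte scaling Spi1 (0.05) and Cebpa (0.07) were no longer called. Of PU.1 and its partners 5 of 10 were higher, with Spib (0.84), Spic (0.89) and Irf8 (0.74) among them. Under leukocyte scaling 0 of them were higher and 2 lower, as in the C/EBP family. Myeloid transcription factors were higher for 4 of 20 and AP-1 factors for 3 of 12, against 6.67% of all genes. Fos (0.68) and Fosb (0.79) were among the AP-1 factors called. Under leukocyte scaling, which called 48% of all genes lower (median −0.60), the myeloid factors had 0 higher and 6 lower (median −0.41). AP-1 factors had 0 higher and 5 lower under it (median −0.53). None of 8 arginine methyltransferases was called, and Carm1 was at 72.8 and 70.2 CPM in R35A and 59.2 and 59.6 CPM in R35K cells (−0.27, below the fold threshold). Under leukocyte scaling 6 of the 8 were called lower, Carm1 among them (−0.93; adjusted p = 2.87e-21, edgeR).

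Genes of the cell cycle followed the B cell genes. Of 20 mitosis genes 18 were higher in R35K cells and 0 lower, with a median log2 difference of 0.78 at 1 hpi and 0.05 at 0 hpi. Of 24 DNA replication genes 8 were higher and 0 lower. Over all genes 6.67% were higher and 2.45% lower. Top2a, the topoisomerase of dividing cells, was measured at 165 and 163 CPM in R35A and 292 and 281 CPM in R35K cells (0.81), after 773 to 829 CPM at 0 hpi, and Ccnb1, a mitotic cyclin, at 14.0 and 12.0 against 20.8 and 24.4 CPM (0.80). Under leukocyte scaling the mitosis median was 0.11 and 0 genes of mitosis or DNA replication were called in either direction. No gene was called among 20 genes of Myc and ribosome biogenesis, 22 of cholesterol synthesis, 13 heat shock, 18 hypoxia and glycolysis, 80 ribosomal protein and 27 histone genes, whose medians lay between −0.16 and 0.15. Under leukocyte scaling the genes called lower in these lists were, in the same order, 18, 12, 10, 11, 26 and 12, and 0 were higher. Over all genes that scaling called 48% lower and 0.516% higher. Interferon-stimulated genes were higher for 4 of 22, beside 6.67% of all genes, and under leukocyte scaling 0 were higher and 3 lower.

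Markers of other blood cells were few. Of 12 T and NK cell markers 2 passed the low-count filter, and Cd4 was called higher, at 2.38 and 3.06 against 5.16 and 5.64 CPM. The mouse gene was counted, and the human CD4 mark of the virus was not analysed here. Ncr1 was at 0 in all 8 libraries and the other filtered T and NK markers had at most 9 counts in a library. Of the erythroid and megakaryocyte markers 4 passed the filter, and Pf4 and Ppbp (0.98) were called higher. Under leukocyte scaling 1 of these 4 was higher and 2 lower, and of the 2 T and NK markers 0 were higher and 1 lower. The filtered ones had at most 13 counts.

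**Figure D3:**
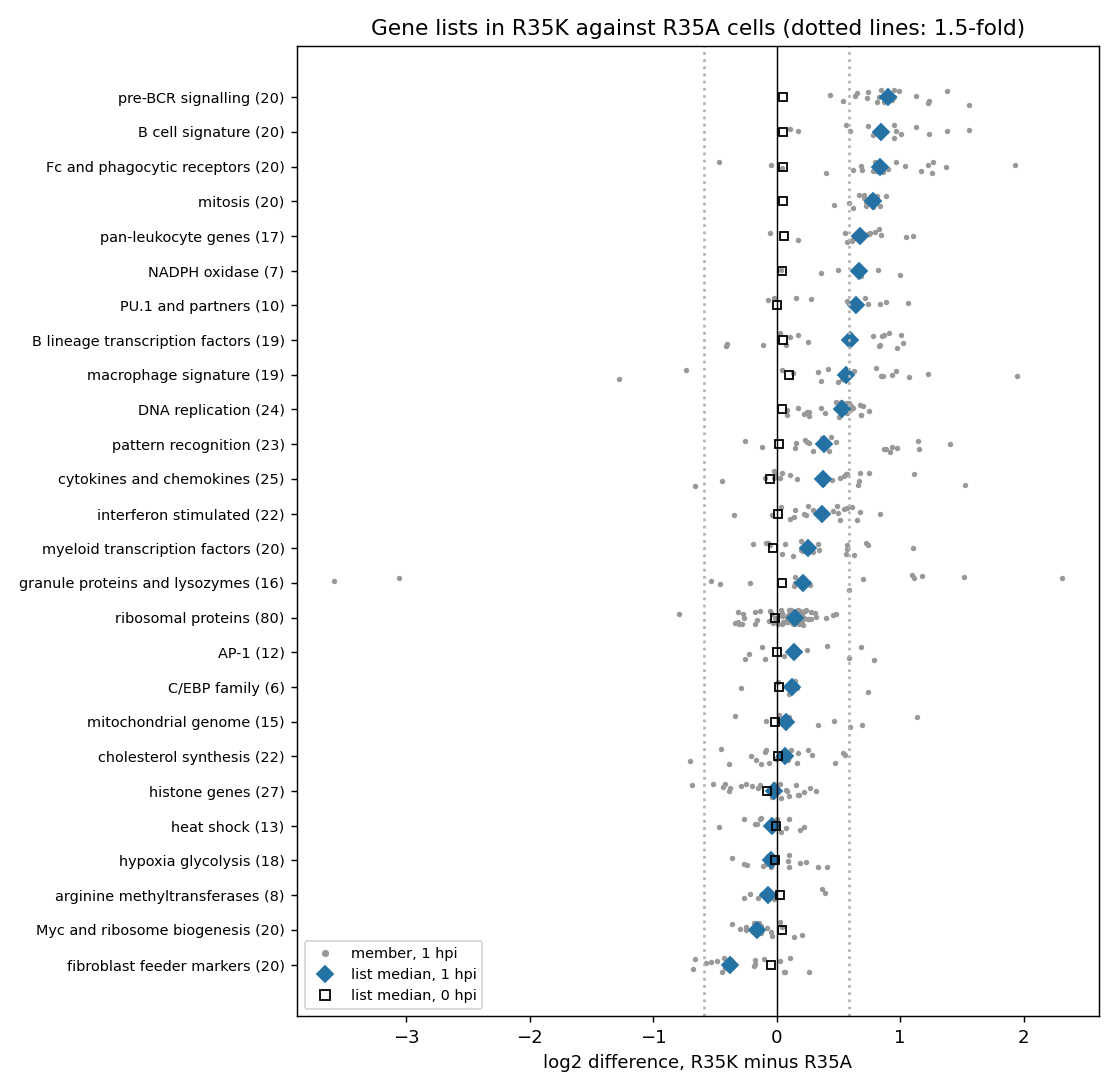
Log2 difference of R35K from R35A cells for the genes of each list at 1 hpi (grey points), with the list median at 1 hpi (filled diamonds) and at 0 hpi (open squares); the number of genes tested is in parentheses. Medians at 1 hpi run from −0.38 for feeder fibroblast markers to 0.90 for pre-BCR signalling. Those at 0 hpi lie between −0.07 for histone genes and 0.10 for the macrophage signature. The lists of T and NK markers and of erythroid and megakaryocyte markers are not plotted. Elane and Ctsg, the points at the far left, had at most 2 counts in each R35A and R35K library at 1 hpi.

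Outside these lists, the genes with the largest difference in the rule for naming were mixed. Slc9a9, a sodium-proton exchanger of endosomes, was measured at 11 and 11.9 CPM in R35A and 40.3 and 38.3 CPM in R35K cells (log2 difference 1.78), Abcg3, an ABC transporter, at 2.80 and 2.82 against 10.2 and 10.1 CPM (1.85), and Lair1 at 6.01 and 6.06 against 18.5 and 19.7 CPM (1.66). Abcg3 had 3.56 and 3.21 CPM in R35A cells at 0 hpi, and its change there was not called. Mir6236 and Rn7sk, both annotated as short noncoding RNAs, differed widely between replicates. Mir6236 was at 21.7 and 22 CPM in R35A and 45.8 and 138 CPM in R35K cells and reached 101 CPM in WT replicate 1 at 0 hpi. Its log2 difference was 2.08, and 1.07 without R35K replicate 2. Rn7sk was at 2.38 and 2.39 against 5.65 and 10.3 CPM and had 11.2 CPM in the same WT library.

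On the lower side, Olr1, which encodes the scavenger receptor LOX-1 at chr6:129485244-129507165, was measured at 89.0 and 87.8 CPM in R35A and 41.6 and 41.1 CPM in R35K cells, after 9.57 to 11.7 CPM at 0 hpi (log2 difference −1.10 ± 0.05 SE; adjusted p = 4.64e-22, edgeR). Adcyap1r1, the receptor of the neuropeptide PACAP, was at 13 and 11.2 against 3.32 and 4.16 CPM (−1.69), and at 2.45 to 4.53 CPM at 0 hpi, so only the R35A libraries at 1 hpi stood above these libraries at 0 hpi, with a difference of change of −1.41 (adjusted p = 4.27e-05, edgeR). Tfpi2, a protease inhibitor of the extracellular matrix, was at 11.1 CPM in both R35A libraries against 4.17 and 4.43 CPM (−1.37). Tnfrsf11b, which encodes osteoprotegerin, the decoy receptor for RANKL, was at 42.5 and 41.6 against 17.5 and 17.4 CPM (−1.27). Tll1, a tolloid protease, was at 60.3 and 64.0 against 30.2 and 28.6 CPM (−1.08), and Lipg, endothelial lipase, at 25.8 and 26.0 against 12.4 and 12.7 CPM (−1.04). The rest were Klhdc8a (−1.25), Cxcr6 (−1.17) and Tmtc2 (−1.05).

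Over the 7217 genes that changed from 0 to 1 hpi in either mutant, the changes lay along one line with a slope of 0.89 of R35K on R35A and a Spearman rho of 0.91 across genes, which are not independent replicates. No library entered both axes, and 96.98% of the genes moved in the same direction. Of 3334 genes that fell in both, 79.0% fell less in R35K cells, whereas of 3665 that rose in both 52.3% rose more. Leukocyte scaling reversed this balance, with 19.5% of 3469 falling less and 10.1% of 4707 rising more in R35K cells. Seen from the direct comparison, 597 of the 1086 genes higher in R35K cells (55.0%) had fallen in R35A cells, and 311 (28.6%) had risen. Of the 399 lower genes 239 (59.9%) had risen in R35A cells. R35K cells changed 5342 genes from 0 to 1 hpi (32.8%) and R35A cells 6242 (38.4%). Of these 2821 rose and 2521 fell in R35K cells and 3152 rose and 3090 fell in R35A cells, whereas under leukocyte scaling 1914 rose and 3932 fell in R35K cells and 5904 rose and 1804 fell in R35A cells.

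**Figure D4:**
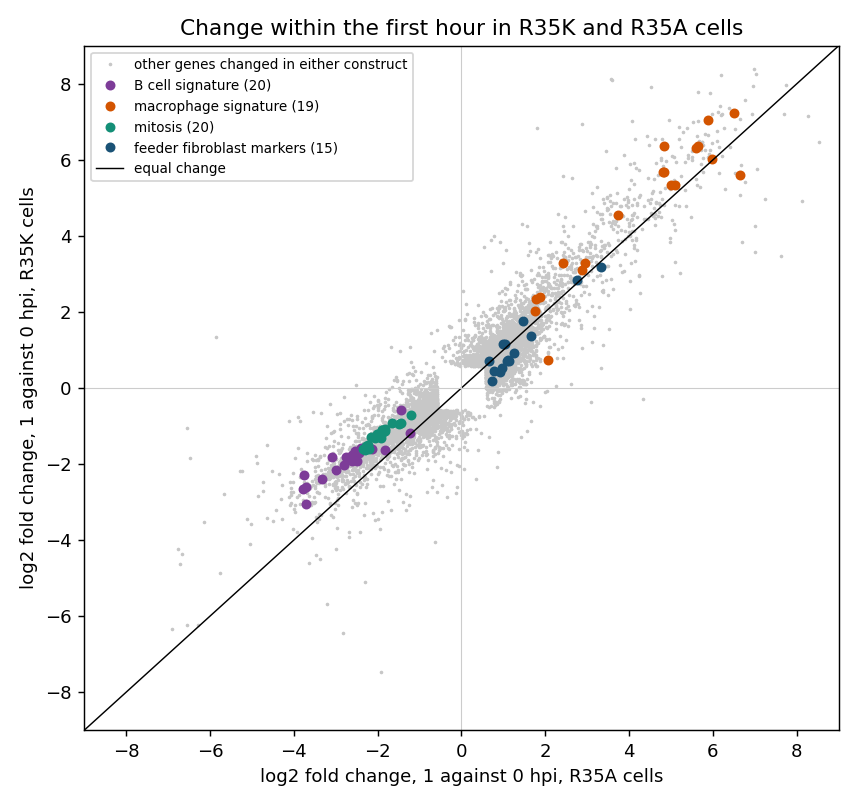
Log2 fold change from 0 to 1 hpi in R35A (x) and R35K cells (y) for 7217 genes changed in either (TMM scaling), with 4 genes outside the axes and 15 feeder markers plotted; the line marks equal change. B cell signature and mitosis genes lie above the line on the falling side, most macrophage signature genes above it on the rising side, and most feeder fibroblast markers below it.

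The step from 0 to 1 hpi was large beside the step that followed. In 1 fit of the 36 libraries over 17277 genes, added after the data were seen, 6405 genes changed from 0 to 1 hpi in R35A cells and 89 (0.515%) from 1 to 3 hpi, and in R35K cells 5504 and 61 (0.353%). Pax5, for example, was at 83.8 and 81.2 CPM in R35A and 158 and 153 CPM in R35K cells at 3 hpi, close to the 1 hpi values. Whether anything besides E2 and time differed between the cells collected at 0 hpi and those collected later was not tested, and whether the 0 hpi cells were kept in the medium of induction is not given in the sources used here. The comparison of the mutants at 1 hpi does not use the 0 hpi cells, but the differences in change do.

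The 3 hpi libraries, which share no library with those at 1 hpi, showed how the difference between the mutants went on. The test at 3 hpi called 871 genes (5.04%), of which 619 (3.58%) were higher in R35K cells and 252 (1.46%) lower. Of the 1086 genes higher at 1 hpi, 1049 (96.6%) had the same sign at 3 hpi and 384 (35.4%) were called again, and of the 399 lower genes 357 (89.5%) had the same sign and 75 (18.8%) were called. No gene was called in the opposite direction. The B cell signature kept a median log2 difference of 0.82 with 16 of 20 genes higher, while the macrophage signature went to 0.12 with 3 of 20 higher and 3 lower. Mrc1 was at 39.6 and 34.9 CPM in R35A and 90.6 and 95.3 CPM in R35K cells (1.32), and Lyz2 at 2869 and 2880 against 4395 and 4416 CPM (0.62). Itgam, at 69.0 and 73.7 against 74.1 and 75.3 CPM, and Olr1, at 67.6 and 63.8 against 65.0 and 63.5 CPM, did not pass the test at 3 hpi, whereas Ifitm6 did (44.8 and 45.1 against 21.4 and 20.8 CPM; −1.09). Feeder fibroblast markers had a median of −0.14 at 3 hpi with 0 of 20 called. Ptprc was at 287 and 272 CPM in R35A and 335 and 327 CPM in R35K cells (0.24, below the fold threshold). Leukocyte scaling was not run at 3 hpi, so these values compare only with the unscaled ones at 1 hpi.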

How the data were processed

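RNA-seq counts of R35K, R35A and WT cells at 0 and 1 hpi were analysed. The authors prepared stranded polyadenylated RNA libraries, aligned reads to mm10 with STAR 2.5.0a and deposited raw counts per gene for 40354 genes in 2 tables, 1 for WT and R35A and 1 for R35K. The annotation release and strand setting are not given in the sources used here. The deposited log2 tables were not used, and 0 sample columns were left unused. Of the symbols, 39171 were found in GENCODE vM21, which gave gene coordinates.

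The count tables were joined by gene symbol and normalized together. The 12 libraries (6 groups of 2) were fitted with edgeR 4.0.16 in R 4.3.3 after filterByExpr and TMM, with quasi-likelihood F tests (two-sided) and Benjamini-Hochberg adjustment. Standard errors were derived from the F statistic. Genes were called at 1.5-fold and an adjusted p of at most 0.05. CPM are TMM-scaled. Genes named by rule were called at 1 hpi and in the difference of change in the same direction, not called by adjusted p at 0 hpi, without overlap of libraries at 1 hpi and at a mean of at least 5 CPM, the 10 largest in each direction, leaving out predicted genes, antigen receptor segments and mitochondrial genes. List members were named by role. Some genes that the rule or the lists hold are not reported here. The rule also asked for genes called at both 0 and 1 hpi, of which there were 0. The comparison and the gene lists were chosen with earlier results of these data known. The leukocyte scaling and the 3 hpi comparison were added after seeing the data.

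Replicates of a group differed by more than sampling noise in a chi-square test (chi-square over degrees of freedom from 1.12 to 1.90). Replicate numbers were not treated as pairs, as 1 of 6 correlations of replicate deviations was above 0.1. Alternatives were DESeq2 1.42.0 size factors and Wald test, other filters, thresholds and sets of libraries, a replicate block, and leaving out each library. The steps were tested on simulated data. Motifs were searched in RefSeq promoters.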

Additional observations from a re-analysis of the deposited data

Results flagged for a closer look

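The change from 0 to 1 hpi differed between the 2 mutants, by an interaction term in the edgeR fit with Benjamini-Hochberg adjustment, for 1081 genes, 817 with a larger and 264 with a smaller log2 change in R35K cells. Under leukocyte scaling the balance was reversed, with 73 larger and 5969 smaller. The values that follow are the R35K change minus the R35A change, in log2, for the genes named in the report that passed this test. Macrophage genes rose more in R35K cells: C1qa (1.79), C1qb (1.69), C1qc (1.53), Mrc1 (1.87), Csf1r (0.73), Itgam (0.88), Lyz2 (0.97), Cd14 (0.83), Adgre1 (1.38), Trem2 (1.16), Tyrobp (0.71), Pf4 (1.12), Mertk (1.22), Cd68 (1.17), Ncf1 (0.99), Ppbp (0.89). B cell genes fell less: Pax5 (0.93), Ebf1 (0.81), Rag1 (1.15), Rag2 (1.29), Blk (1.09), Igll1 (0.78), Enpep (1.71), Bach2 (0.90), Pou2f2 (0.88), Spib (0.75). So did the cell cycle genes Top2a (0.75), Ccnb1 (0.72). The transcription factors Spi1 (0.75), Cebpa (0.70), Fos (0.69), Fosb (0.74) rose more. Other genes with a positive difference were Mir6236 (2.10), Abcg3 (1.86), Slc9a9 (1.39), Rn7sk (1.63), Lair1 (1.68), Ngp (2.31), Irf8 (0.72), and Ppbp (0.89) of the erythroid and megakaryocyte markers. Of these Mir6236 and Rn7sk differed widely between the R35K replicates and Ngp rests on at most 8 counts in each 1 hpi library. Genes with a negative difference were Adcyap1r1 (−1.41), Tfpi2 (−1.11), Tnfrsf11b (−1.11), Klhdc8a (−1.24), Cxcr6 (−1.14), Olr1 (−0.96), Tll1 (−1.08), Tmtc2 (−1.13), Lipg (−1.02), Mmp8 (−2.05), Tagln (−0.75), Acta2 (−0.71). Under leukocyte scaling 12 of the 39 genes listed with a positive difference were still called, and the other values were positive but not called, whereas all 12 genes with a negative difference were called. That scaling lowered each difference by about the same amount, so these calls followed mainly from the unscaled sizes. Among the genes listed Mmp8 had the most negative value, and it was also the 1 gene that differed at 0 hpi, on 18 and 10 counts in R35A and 41 and 43 counts in R35K cells. At 3 hpi Mir6236 again stood apart in 1 R35K library, at 48.8 and 579 CPM.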

How the results depend on the processing

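The count of 1485 genes at 1 hpi stayed within 1.5 times under DESeq2 size factors (1471), no filter (1477), a filter of at least 10 counts (1498), the DESeq2 Wald test (1137), the 8-library fit (1413) and the 36-library fit (1467), and between 1353 and 1496 on leaving out single libraries. It was 358 at a 2-fold threshold, 6577 without a fold threshold, and 7897 under leukocyte scaling, where 84 genes were higher, 7813 lower and the median log2 difference of all genes was −0.60. Of the 122 list members called, 117 were higher, whereas leukocyte scaling called 178, of which 169 were lower; leaving out single libraries gave 119 to 125. At 0 hpi the 1 gene became 12 without a filter, 2 under leukocyte scaling, 3 without a fold threshold and 0 to 13 on leaving out single libraries. The difference of change (1081) was 271 at 2-fold, 4237 without a fold threshold, 6042 under leukocyte scaling (73 larger, 5969 smaller) and 995 to 1049 on leaving out single libraries. The changes from 0 to 1 hpi were 3096 and 3571 at 2-fold and 10530 and 11254 without a fold threshold for R35K and R35A cells, and 5123 to 5443 and 5999 to 6346 on leaving out single libraries. The slope of 0.89 went to between 0.82 and 0.88 on leaving out single libraries. The cause of these moves was not tested, other than by the thresholds themselves. Where 1 library was left out, the remaining one was assumed to vary like the other groups. A replicate block moved no count by over 1.5 times, with 1476 genes at 1 hpi, 1 at 0 hpi and 1065 in the difference of change. With both libraries of every group kept, all 20 named genes kept their call and direction, except Rn7sk in the 36-library fit (1.73, adjusted p = 0.170, edgeR). None of the 20 changed sign under any alternative. The 20 were selected as the largest called differences in these same libraries, so that result was largely set by the selection and is no independent check.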
